A study of Rattus norvegicus with 20 samples.

Results

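Aadat, Gatm, Gamt, Phgdh, Psat1, Shmt2, Asns and Got1 encode enzymes of amino acid and creatine metabolism, and their transcripts were measured in isolated rat islets given adenovirus for the nuclear receptors Nr4a1 or Nr4a3. They were taken by name from a list and are 8 of the 14217 genes measured, with 9 probe sets among them. Aadat and Gatm had been chosen by their measured values, as genes among the farthest above the GFP control in islets with Nr4a3 virus. For these 2 genes every difference that uses the Nr4a3 or GFP arrays is therefore a description with no test. The other 6 genes were listed for their role, with earlier results of these arrays known.

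The islets came from male Wistar rats, 8 weeks old, and were kept in medium with 8 mM glucose and 10% serum. One set of 5 samples received adenovirus for Nr4a1, another 5 received adenovirus for Nr4a3, 5 received adenovirus for green fluorescent protein (GFP) and 5 stayed untreated. Virus was present for 18 h where it was given, and islets were collected at 48 h. Each sample had its own array, so n = 5 per group throughout. The labels name the replicates biological but do not tie them to animals, so a p here reflects only how these samples vary. The treatment protocol in the labels names other viruses, for beta-galactosidase and Nkx6.1. Groups here follow the titles and characteristics, and "Nr4a1 arrays" means the arrays so labelled. Whole islets were measured, so fewer cells of a type and less RNA per cell cannot be told apart in any result.

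Amino acid enzymes of these kinds sit at branch points of islet metabolism. AADAT is a mitochondrial aminotransferase that turns aminoadipate from lysine into oxoadipate and also turns kynurenine from tryptophan into kynurenic acid. GATM moves the amidino group of arginine onto glycine in the first step of creatine synthesis, and GAMT methylates the product to creatine. Exocrine acinar cells of the pancreas are known for high GATM. PHGDH, PSAT1 and PSPH make serine from a glycolytic intermediate in that order, and mitochondrial SHMT2 then makes glycine and one-carbon units. ASNS makes asparagine from aspartate. GOT1, the cytosolic aspartate aminotransferase, is part of the malate-aspartate shuttle that carries reducing equivalents into mitochondria. Asns, Phgdh, Psat1 and Shmt2 are known targets of ATF4, the transcription factor of the response to amino acid shortage.

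NR4A receptors bind DNA as monomers at a site written AAAGGTCA, named the NBRE, which holds the nuclear receptor half-site AGGTCA. The promoters of the 2 genes that stood farthest above GFP are shown to make these letters visible. Both are RefSeq sequence of the GRCr8 build, 250 bases before to 50 bases after the gene start, read 5′ to 3′ on the minus strand that carries the gene. They lie at chr16:34555131-34555430 for Aadat and chr3:130129044-130129343 for Gatm. Capitals mark AGGTCA.
Aadat: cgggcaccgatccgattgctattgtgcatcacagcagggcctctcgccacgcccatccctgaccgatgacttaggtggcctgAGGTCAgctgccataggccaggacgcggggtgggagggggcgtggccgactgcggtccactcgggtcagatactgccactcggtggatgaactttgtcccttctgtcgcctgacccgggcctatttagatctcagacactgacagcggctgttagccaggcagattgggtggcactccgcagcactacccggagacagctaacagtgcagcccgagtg
Gatm: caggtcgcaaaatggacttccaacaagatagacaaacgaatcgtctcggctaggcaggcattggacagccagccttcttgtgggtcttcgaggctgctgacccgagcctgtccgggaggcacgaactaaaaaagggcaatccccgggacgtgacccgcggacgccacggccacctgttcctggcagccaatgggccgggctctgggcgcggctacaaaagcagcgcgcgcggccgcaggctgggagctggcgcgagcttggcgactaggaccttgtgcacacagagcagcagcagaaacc
Aadat held AGGTCA from -168 to -163 relative to the gene start, on the strand shown. The search covered both strands of the promoters of all 8 genes and of the lysine breakdown enzyme genes Aass, Aldh7a1, Dhtkd1 and Gcdh. No NBRE was among them, and the only other AGGTCA lay in the Aass promoter at -200 to -195 on the opposite strand. Of 33365 distinct RefSeq rat promoters of this length, 16.2% held AGGTCA and 1.42% the NBRE. The letters TGATGNAA, the core of the amino acid response element bound by ATF4, were in 3.98% of promoters and in 1 of the 8, Got1, at -167 to -160 on the opposite strand. Matches of this kind describe letters in these windows and say nothing of binding.

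Intensities are given on the log2 scale, and a difference is the first group minus the second, as a log2 difference ± SE from limma, a linear model fitted to all genes. A gene was called where the p adjusted by the Benjamini-Hochberg method over all 14217 genes was under 0.05. Nr4a3 replicate 2 was unlike the other 19 arrays: over genes it correlated with them at a mean of 0.941, where each of the 19 reached 0.982 to 0.989. Its 3' minus 5' difference of the actin control probe sets was 4.62, against 1.5 to 2.21 in the other 19 arrays, and that of the GAPDH control was 2.06 against 0.271 to 0.739. Where leaving it out changed a call or moved a Nr4a3 difference by over 1.5 times, the value without it is given too. Transcripts of the delivered genes showed no match to the labels. Signal of the Nr4a1 probe set averaged 5.99 ± 0.12 (SD) in Nr4a1 arrays, 6.09 ± 0.18 in Nr4a3 arrays, 6.07 ± 0.09 in GFP arrays and 6.05 ± 0.16 in untreated arrays. The Nr4a3 probe set averaged 6.07 ± 0.13, 5.82 ± 0.19, 5.63 ± 0.17 and 5.83 ± 0.07 in the same order. Neither probe set can be placed relative to the delivered sequence here, so labels and delivery remain unchecked.

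Aadat had a low signal in islets without a receptor virus and a higher one in every array with either receptor virus. It read 5.65, 6.65, 5.29, 6.26 and 6.09 in Nr4a1 replicates 1 to 5, and 7.51, 7.57, 7.10, 5.98 and 5.74 in Nr4a3 replicates 1 to 5. In GFP arrays it read 4.32, 4.44, 4.39, 4.36 and 4.31, and in untreated arrays 4.18, 4.52, 4.24, 4.53 and 4.11. Every array of either receptor lay above all 10 control arrays, and the controls spanned 4.11 to 4.53. Aadat was chosen by its rise with Nr4a3 over GFP. Over all genes, Nr4a1 arrays lay wholly above GFP arrays for 10.6% and above untreated arrays for 7.65%. For Nr4a3 arrays above GFP arrays the share was 3.12%. The spread of Aadat was wide among receptor arrays: the SD was 0.53 for Nr4a1 and 0.86 for Nr4a3, against 0.05 for GFP and 0.19 for untreated islets.

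Against untreated islets Aadat rose by 1.67 ± 0.30 with Nr4a1 virus (limma adjusted p = 0.00125, higher in 5 of 5 arrays). The means compared share no array with the comparison that picked Aadat. The SE and p are not free of it, since their spread was estimated over all groups, Nr4a3 and GFP included. Aadat was called in all 27 alternatives that tested it, with limma adjusted p from 0.000303 (without Nr4a3 replicate 2) to 0.00506. These included a fit to only the Nr4a1 and untreated arrays, which takes no spread from the selecting arrays. Virus and receptor cannot be told apart in that comparison. As a description, Aadat was higher by 1.63 ± 0.30 in Nr4a1 than in GFP arrays and by 2.42 ± 0.30 in Nr4a3 than in GFP arrays (2.22 ± 0.29 without Nr4a3 replicate 2). In control arrays only 5.7% of genes were dimmer than Aadat, and 15.3% were dimmer than Gatm. Whether those control signals lay above background was not measured, so no fold is given for either gene. Nr4a1 arrays were lower than Nr4a3 arrays by a mean of -0.79 ± 0.30, and their ranges overlapped. GFP and untreated islets differed by 0.05 ± 0.30.

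**Figure D1:**
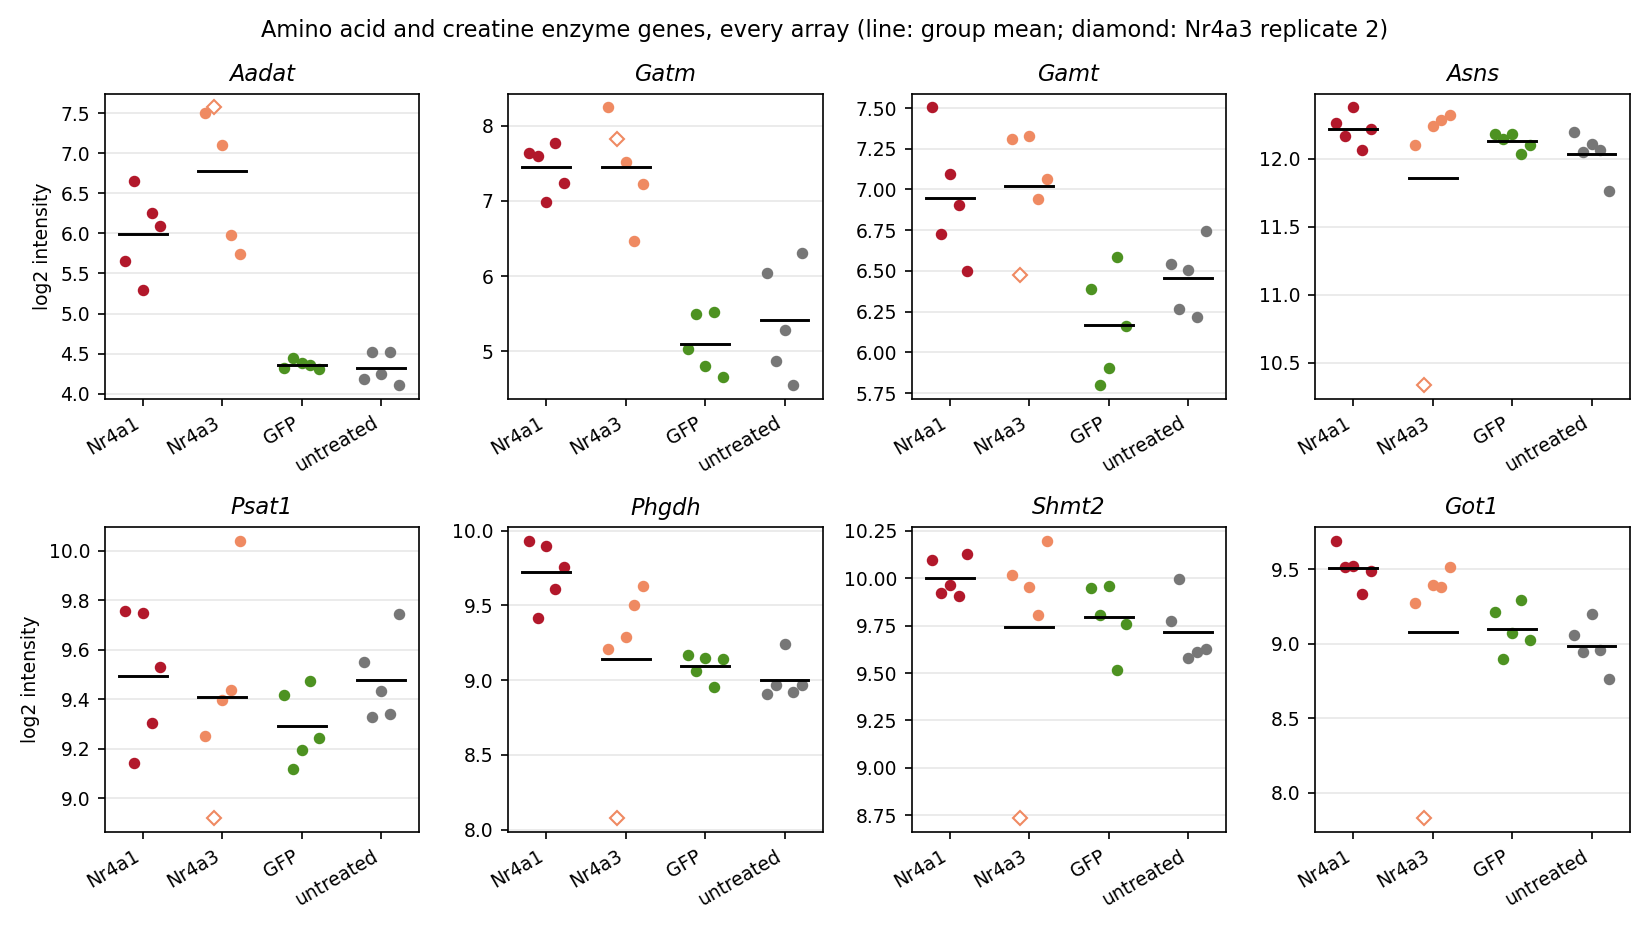
Log2 intensity of the 8 enzyme genes in each of the 20 arrays, with 1 panel per gene and its own vertical scale. Points are arrays, lines are group means of 5 arrays, and the open diamond is Nr4a3 replicate 2. Aadat and Gatm, which were chosen by their values, lie above all 10 control arrays in every Nr4a1 and Nr4a3 array. Over all genes, Nr4a1 arrays lay wholly above GFP arrays for 10.6% and Nr4a3 arrays for 3.12%. Asns, Shmt2, Got1 and Phgdh have their lowest value in Nr4a3 replicate 2.

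The enzymes on either side of Aadat in lysine breakdown were higher as well in Nr4a1 arrays. Aass, the first enzyme, rose by 0.77 ± 0.16 against GFP (limma adjusted p = 0.00452), and Aldh7a1, which makes the aminoadipate that Aadat uses, rose by 0.66 ± 0.13 (adjusted p = 0.00253). Dhtkd1, a subunit of the oxoadipate dehydrogenase that follows Aadat, rose by 0.53 ± 0.10 (adjusted p = 0.00135). Gcdh, glutaryl-CoA dehydrogenase, rose by 0.24 ± 0.07 (adjusted p = 0.0390), a call that ended with the mean of its 3 probe sets (0.17, adjusted p = 0.309), with a replicate block (0.0525), with repeated quantile normalization (0.0656), with all probe sets tested (0.0538) and on leaving out any Nr4a1 array but replicate 4 or any GFP array but replicate 1 (up to 0.119). Dhtkd1 and Gcdh, and Kyat1, Kyat3, Cth, Ahcy, Eif2ak4 and Sesn2 below, were named after their values were seen.

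By array, Aass read 10.57, 10.51, 10.49, 10.69 and 10.34 in Nr4a1 replicates 1 to 5, and 10.40, 11.04, 10.68, 10.03 and 10.56 in Nr4a3 replicates 1 to 5. GFP arrays read 9.45, 9.88, 9.82, 9.83 and 9.79, and untreated arrays 10.25, 9.80, 9.31, 9.78 and 9.60. Receptor arrays did not overlap GFP arrays, while untreated replicate 1 reached into the Nr4a3 range. Aldh7a1 read 10.85, 10.69, 10.57, 10.68 and 10.59 in Nr4a1 arrays and 10.52, 9.60, 10.49, 10.29 and 10.37 in Nr4a3 arrays. GFP arrays read 9.96, 9.98, 10.05, 10.10 and 10.01 for Aldh7a1, and untreated arrays 10.17, 10.04, 9.77, 10.01 and 10.09. All 5 Nr4a1 arrays lay above every control, and Nr4a3 replicate 2 lay below them all. Over all genes, receptor arrays lay wholly above GFP arrays for 10.6% with Nr4a1 and 3.12% with Nr4a3. Nr4a1 arrays lay wholly above untreated arrays for 7.65%.

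With Nr4a3 virus, Aass rose by 0.79 ± 0.16 against GFP (limma adjusted p = 0.0139, 0.0194 without Nr4a3 replicate 2 and 0.0646 in a fit to only these 10 arrays). Aldh7a1 differed by 0.23 ± 0.13 (adjusted p = 0.478), and by 0.40 without Nr4a3 replicate 2 (adjusted p = 0.00584). Dhtkd1 differed by 0.32 ± 0.10 and was not called (adjusted p = 0.103), although the 5 Nr4a3 arrays, at 7.30 to 7.50, did not overlap the GFP arrays at 6.91 to 7.23, as was found in the upward direction for 3.12% of all genes. Gcdh differed by 0.11 (adjusted p = 0.555). Against untreated islets, Nr4a1 virus went with a rise of Aass (0.77, limma adjusted p = 0.00485), Aldh7a1 (0.66, adjusted p = 0.00278) and Dhtkd1 (0.46, adjusted p = 0.00426), while Gcdh differed by 0.17 (adjusted p = 0.157).

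Of the other 17 measured genes of lysine and tryptophan breakdown, 6 rose and 0 fell in Nr4a1 against GFP arrays, where 8.71% of all genes were called, 6.16% as higher. The list's median difference was 0.11, against 0.00 over all genes. Besides the 4 above they were Kyat3 (0.42 ± 0.10, limma adjusted p = 0.00944) and Kyat1 (0.28 ± 0.08, adjusted p = 0.0263, and up to 0.0911 on leaving out Nr4a1 replicate 1, 4 or 5 or any GFP array but replicate 4, 0.0536 with a replicate block and 0.0541 with repeated quantile normalization), further aminotransferases that act on kynurenine. Kmo and Kynu, which take kynurenine down its main route, differed by -0.06 and -0.03 and were not called. Both were dim, with group means of 4.02 to 4.18 for Kmo and 4.93 to 4.98 for Kynu. Whether these signals lay above background was not measured. In Nr4a3 against GFP arrays 1 of the 17 rose, Aass, with a median of 0.10 and 1.93% of all genes called. With Nr4a3 replicate 2 left out, Aldh7a1 rose too, and the median was 0.04, against 0.02 over all genes. In Nr4a1 against untreated arrays 4 of 17 rose and 0 fell, where 7.94% of all genes were called, 5.35% as higher, and 6 of 17 rose without Nr4a3 replicate 2, where 19.1% were called. Direct comparison of Nr4a1 with Nr4a3 arrays called 0 of the 17.

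**Figure D2:**
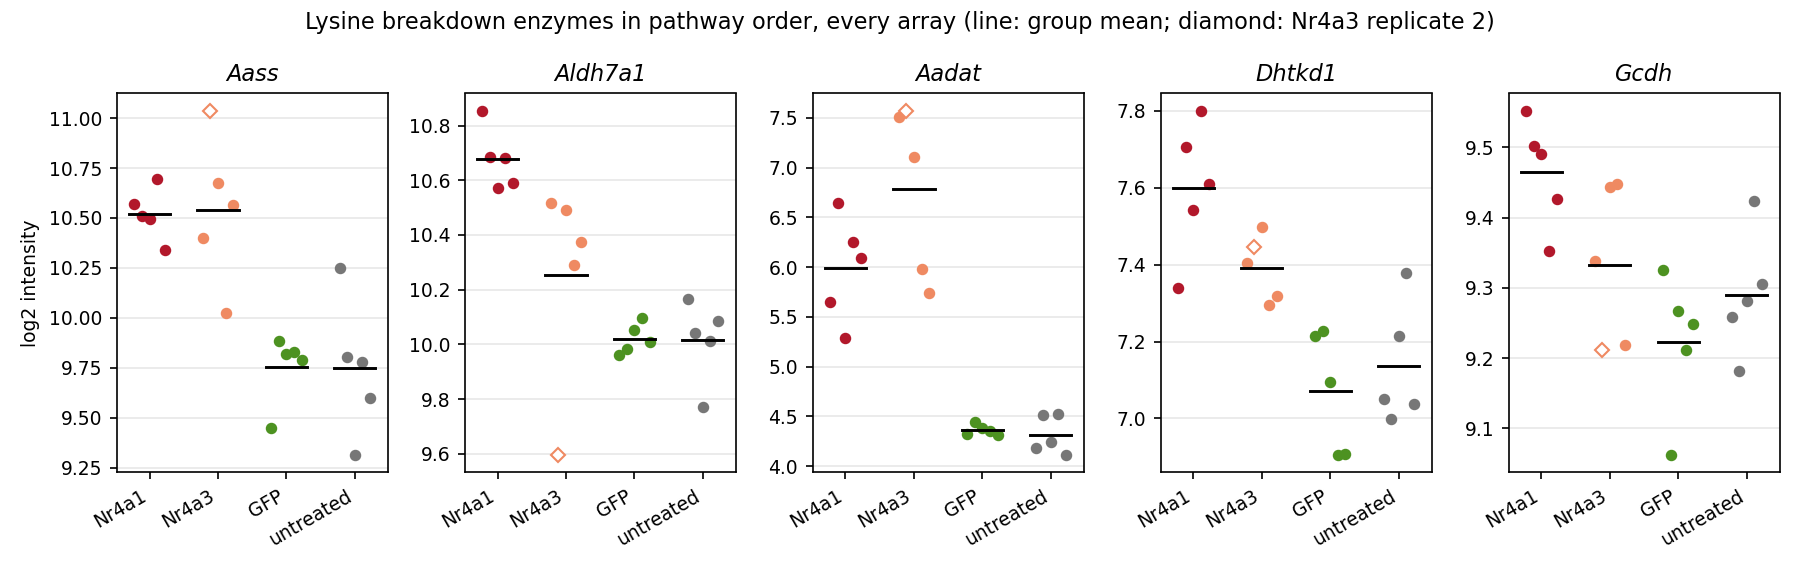
Log2 intensity of 5 lysine breakdown genes in pathway order, Aass, Aldh7a1, Aadat, Dhtkd1 and Gcdh, in each of the 20 arrays. Points are arrays, lines are group means and the open diamond is Nr4a3 replicate 2, which is the highest Aass array at 11.04 and the lowest Aldh7a1 array at 9.60. The Nr4a1 arrays lie above all GFP arrays in each of the 5 panels, as was found for 10.6% of all genes. These 5 are the only such genes of the 18 measured for lysine and tryptophan breakdown. Aadat was chosen by its values, and Dhtkd1 and Gcdh were named after theirs were seen.

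Gatm, the entry step of creatine synthesis, was higher with either receptor virus. It read 7.64, 7.59, 6.99, 7.77 and 7.24 in Nr4a1 replicates 1 to 5, and 8.24, 7.83, 7.51, 6.47 and 7.23 in Nr4a3 replicates 1 to 5. In GFP arrays it read 5.03, 5.49, 4.81, 5.53 and 4.66, and in untreated arrays 6.04, 4.88, 5.28, 4.56 and 6.31. All 10 receptor arrays lay above all 10 controls, the closest pair being Nr4a3 replicate 4 at 6.47 and untreated replicate 5 at 6.31. Gatm too was chosen by its rise with Nr4a3 over GFP. Nr4a1 arrays lay wholly above GFP arrays for 10.6% of all genes and above untreated arrays for 7.65%. Nr4a3 arrays lay wholly above GFP arrays for 3.12%.

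Against untreated islets, Gatm rose by 2.03 ± 0.32 with Nr4a1 virus (limma adjusted p = 0.000452, higher in 5 of 5 arrays), and the call held in all 27 alternatives. As for Aadat, the SE and p rest on a spread that includes the Nr4a3 and GFP arrays. Gatm too was called in the fit to only the Nr4a1 and untreated arrays. As a description, it was higher by 2.34 ± 0.32 in Nr4a1 than in GFP arrays and by 2.35 ± 0.32 in Nr4a3 than in GFP arrays (2.26 ± 0.34 without Nr4a3 replicate 2). The means of the Nr4a1 and Nr4a3 arrays differed by -0.01 ± 0.32, with a 95% interval of -0.69 to 0.67 (0.08 ± 0.34 without Nr4a3 replicate 2), and GFP differed from untreated by -0.31 ± 0.32. These values come from the brighter of 2 Gatm probe sets. The dimmer one spanned 4.83 to 5.25 over all 20 arrays and averaged 5.05 in Nr4a1, 4.99 in Nr4a3, 5.08 in GFP and 5.12 in untreated arrays. By itself the dimmer one differed by -0.07 in Nr4a1 against untreated and was not called (limma adjusted p = 0.684 over all probe sets). The 27 alternatives do not include it alone. The mean of both probe sets gave 1.16 for Nr4a1 and 1.13 for Nr4a3 against GFP, and 0.98 for Nr4a1 against untreated.

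Gamt, the methyltransferase that completes creatine, rose less. It read 7.50, 6.73, 7.09, 6.90 and 6.50 in Nr4a1 replicates 1 to 5, and 7.31, 6.47, 7.33, 6.94 and 7.06 in Nr4a3 replicates 1 to 5. In GFP arrays it read 6.39, 5.80, 5.91, 6.59 and 6.16, and in untreated arrays 6.54, 6.26, 6.51, 6.22 and 6.74. Both receptor ranges touched the GFP range, through Nr4a1 replicate 5 and Nr4a3 replicate 2.

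Against GFP, Gamt rose 1.71-fold with Nr4a1 (0.78 ± 0.19, limma adjusted p = 0.0133) and 1.81-fold with Nr4a3 (0.86 ± 0.19, adjusted p = 0.0221). With replicate 2 left out the Nr4a3 difference was 0.99 ± 0.18 (limma adjusted p = 0.00381). The Nr4a1 call ended without Nr4a1 replicate 1 (limma adjusted p = 0.0510). The Nr4a3 call ended without Nr4a3 replicate 1 or 3, without GFP replicate 2, 3 or 5 (up to 0.0720) and in a fit to only these 10 arrays (0.0790). Nr4a1 against untreated gave 0.49 ± 0.19 (limma adjusted p = 0.132), and GFP lay below untreated by -0.29 ± 0.19 (adjusted p = 1.0). Nr4a1 differed from Nr4a3 by -0.08 ± 0.19 (adjusted p = 0.879, 95% interval -0.48 to 0.32), and by -0.22 ± 0.18 without Nr4a3 replicate 2 (adjusted p = 0.739).

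None of the other 5 measured creatine genes was called against GFP with either receptor. Slc6a8, the creatine transporter, differed by -0.18 with Nr4a1 and 0.04 with Nr4a3, and Ckb, brain-type creatine kinase, by -0.07 and 0.02. The Nr4a3 values were 0.09 for Slc6a8 and 0.11 for Ckb without Nr4a3 replicate 2. In Nr4a1 against untreated arrays Slc6a8 fell by 0.27 (limma adjusted p = 0.0318), the only called gene of the 5.

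Acinar cell genes differed between the same groups, and Gatm is known to be high in acinar cells. Over 23 of 25 listed acinar markers that were measured, the mean log2 level was 10.42 ± 0.58 (SD, 9.70 to 11.01) in Nr4a1 arrays, 8.93 ± 0.33 (8.70 to 9.48) in Nr4a3 arrays, 8.15 ± 1.0 (7.06 to 9.32) in GFP arrays and 8.49 ± 1.25 (7.05 to 10.32) in untreated arrays. Their summed intensity ranged over 38843 to 95258 in Nr4a1 arrays, 17659 to 34650 in Nr4a3 arrays, 5052 to 28541 in GFP arrays and 5164 to 63455 in untreated arrays. Of the 23 markers, 20 rose in Nr4a1 against GFP arrays, 1 in Nr4a3 against GFP and 13 in Nr4a1 against untreated. The part of the acinar level in the differences of Gatm, Gamt and the other enzymes was not tested.

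Arrays with like acinar levels are given side by side as a description only, since the part of the acinar level was not tested. GFP replicates 2 and 4, with acinar means of 9.09 and 9.32, read 5.49 and 5.53 for Gatm, while the 5 Nr4a3 arrays at 8.70 to 9.48 read 6.47 to 8.24. In the same span, untreated replicates 1 and 3 had acinar means of 8.72 and 8.71 and read 6.04 and 5.28. Untreated replicate 5 had an acinar mean of 10.32, within the Nr4a1 range, and read 6.31 for Gatm against 6.99 to 7.77 in Nr4a1 arrays. Among the 10 controls, Gatm read 5.28 to 6.31 in the 5 with acinar means of 8.71 to 10.32 and 4.56 to 5.03 in the 5 at 7.05 to 7.74. Aadat read 4.11 to 4.53 in these 10 controls, and untreated replicate 5 had the lowest Aadat of all 20 arrays at 4.11. The GAPDH 3' minus 5' difference, a sign of RNA quality, was 0.271 to 0.357 in Nr4a1 arrays, 0.499 to 0.739 in GFP arrays and 0.408 to 0.720 in untreated arrays, and its part in the Nr4a1 results was not tested.

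**Figure D3:**
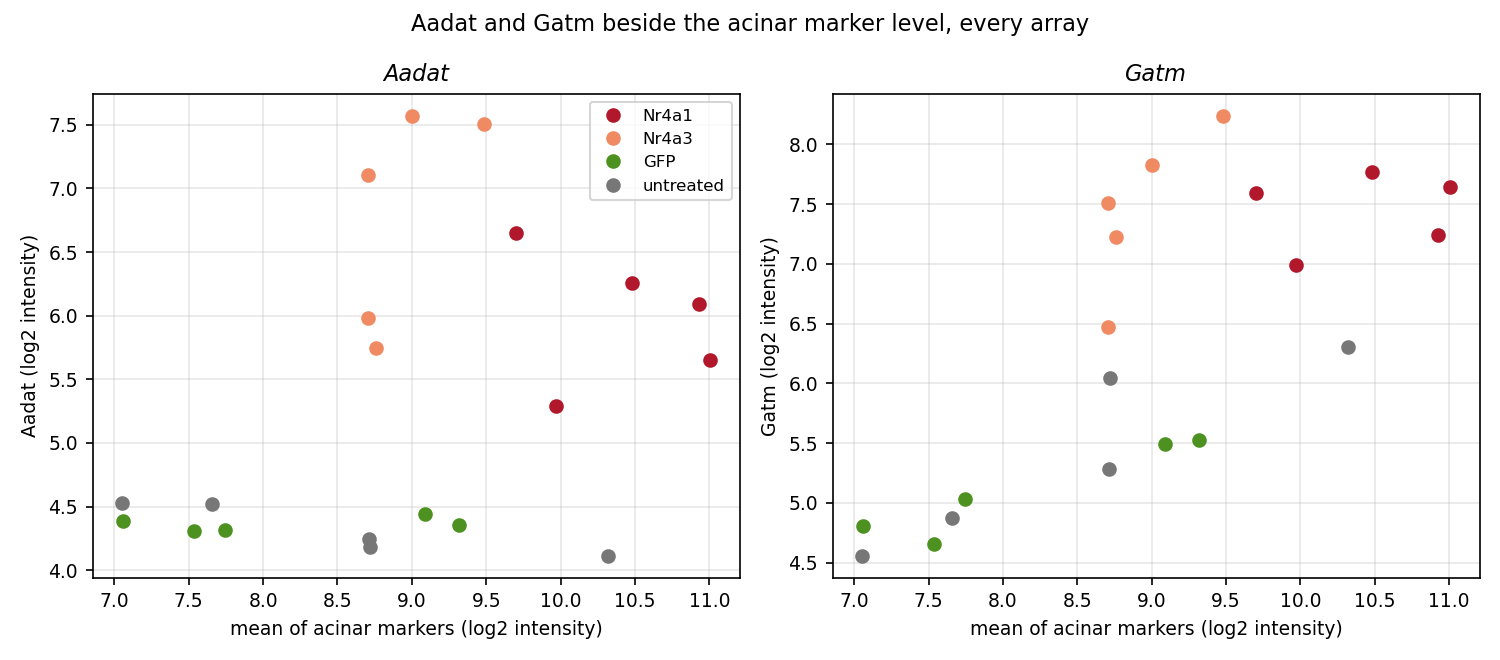
Log2 intensity of Aadat (left) and Gatm (right) against the mean log2 intensity of 23 acinar marker genes, with 1 point per array coloured by group. At acinar means of 8.70 to 9.48 the Nr4a3 points lie above the GFP points at 9.09 and 9.32 in both panels. They also lie above the untreated points at 8.72 and 8.71, of which the first reaches 6.04 for Gatm, near the lowest Nr4a3 point at 6.47. Among the 10 control points Gatm is 5.28 to 6.31 at acinar means of 8.71 and above and 4.56 to 5.03 at 7.74 and below, and Aadat stays between 4.11 and 4.53. The part of the acinar level in either gene was not tested.

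Other marker lists moved less or the other way. The islet endocrine markers, 10 of 12 measured, averaged 12.93 in Nr4a1 (12.82 to 13.18), 12.95 in Nr4a3 (12.44 to 13.22), 13.15 in GFP (13.05 to 13.24) and 13.20 in untreated arrays (13.05 to 13.31). The 12.44 is Nr4a3 replicate 2, and the next lowest Nr4a3 array was at 13.01. Of these markers 3, Pdx1, Nkx6-1 and Slc2a2, fell in Nr4a1 against GFP arrays, and 4 without Nr4a3 replicate 2. Endothelial markers fell in 6 of 7 cases in Nr4a1 and in 2 of 7 in Nr4a3 against GFP arrays (3 of 7 without Nr4a3 replicate 2). Of 6 duct markers 1 rose, Car2, in both comparisons, and none of 8 stellate and 8 macrophage markers was called in either. Without that array 1 duct and 1 stellate marker fell with Nr4a1. Their part in the enzyme results was not tested.

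Phgdh, the first enzyme of serine synthesis, stood higher in the Nr4a1 arrays. It read 9.93, 9.42, 9.90, 9.61 and 9.75 in Nr4a1 replicates 1 to 5, and 9.21, 8.08, 9.29, 9.50 and 9.63 in Nr4a3 replicates 1 to 5. In GFP arrays it read 9.17, 9.06, 9.15, 8.95 and 9.14, and in untreated arrays 8.91, 8.97, 9.24, 8.92 and 8.97. All Nr4a1 arrays lay above all 10 controls, and so did the Nr4a3 arrays other than replicate 2, except for replicate 1 at 9.21, which lay below untreated replicate 3. Of all genes, 10.6% had Nr4a1 arrays wholly above GFP arrays, and 7.65% had them wholly above untreated arrays.

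Against untreated islets Phgdh rose 1.65-fold with Nr4a1 (0.72 ± 0.20, limma adjusted p = 0.0273), and against GFP it differed by 0.63 ± 0.20 and missed the threshold (adjusted p = 0.0548). Without Nr4a3 replicate 2, which enters only through the shared estimate of spread, the adjusted p was 5.65e-05 against untreated and 0.000211 against GFP in limma. The call against untreated ended without Nr4a1 replicate 1, 3 or 5 or untreated replicate 1, 4 or 5 (up to 0.0824). Against GFP it was called in 8 of 28 alternatives. Besides the one above, these were without Nr4a1 replicate 2 or Nr4a3 replicate 5 (limma adjusted p = 0.0494 and 0.0429) and with the replicate number as a block (0.0403). The rest were a fit to only the 10 arrays compared (limma adjusted p = 0.00102), array weights (0.000294), repeated quantile normalization (0.0363) and dim genes left out (0.0446). With Nr4a3 it differed from GFP by 0.04 ± 0.20 (adjusted p = 0.941), and by 0.31 ± 0.11 without replicate 2 (adjusted p = 0.117). The difference between Nr4a1 and Nr4a3 was 0.58 ± 0.20 (limma adjusted p = 0.260), and 0.32 without replicate 2 (adjusted p = 0.195).

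Psat1, the second enzyme of the route, was not called in any comparison. It ranged over 9.14 to 9.76 in Nr4a1 arrays, 8.92 to 10.04 in Nr4a3 arrays, 9.12 to 9.48 in GFP arrays and 9.33 to 9.75 in untreated arrays, so all groups overlapped. Against GFP it differed by 0.21 ± 0.16 with Nr4a1 (limma adjusted p = 0.570, 95% interval -0.13 to 0.54) and by 0.12 ± 0.16 with Nr4a3 (adjusted p = 0.775, and 0.24 ± 0.15 without replicate 2, adjusted p = 0.478). Psph, which completes serine, differed by -0.07 with Nr4a1 and 0.11 with Nr4a3. Of the 3 genes of the route, Phgdh alone was called in Nr4a1 against untreated, and the difference between steps was not tested.

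Shmt2 ranged over 9.91 to 10.13 in Nr4a1 arrays, 8.73 to 10.20 in Nr4a3 arrays, 9.52 to 9.96 in GFP arrays and 9.58 to 10.00 in untreated arrays. It differed by 0.21 ± 0.19 with Nr4a1 against GFP (limma adjusted p = 0.649) and by 0.29 ± 0.19 against untreated (adjusted p = 0.426, and 0.0439 without Nr4a3 replicate 2). With Nr4a3 it differed from GFP by -0.06 ± 0.19, and by 0.20 without replicate 2 (adjusted p = 0.367). Of the other 17 measured genes of serine, glycine and one-carbon metabolism, 0 were called in Nr4a1 or Nr4a3 against GFP. Leaving out Nr4a3 replicate 2 gave 2 rises and 1 fall with Nr4a1, beside 19.1% of all genes called. Its cytosolic relative Shmt1 differed from GFP by 0.00 with Nr4a1 and 0.04 with Nr4a3 (0.07 without replicate 2), and Mthfd2, the mitochondrial folate enzyme, by 0.20 (limma adjusted p = 0.0360 without Nr4a3 replicate 2) and -0.02 (0.21 without it).

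Got1 was higher in every Nr4a1 array than in any control array. It read 9.69, 9.52, 9.52, 9.33 and 9.49 in Nr4a1 replicates 1 to 5, and 9.27, 7.83, 9.40, 9.38 and 9.52 in Nr4a3 replicates 1 to 5. In GFP arrays it read 9.21, 8.90, 9.07, 9.29 and 9.02, and in untreated arrays 9.06, 8.95, 9.20, 8.95 and 8.76. Groups that do not overlap in the upward direction were found for 10.6% of all genes in Nr4a1 against GFP and for 7.65% in Nr4a1 against untreated.

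The difference of Got1 was 0.41 ± 0.22 in Nr4a1 against GFP arrays (limma adjusted p = 0.317) and 0.53 ± 0.22 against untreated (adjusted p = 0.163), neither of them called. Without Nr4a3 replicate 2 the SE fell to 0.09 and both were called (limma adjusted p = 0.00233 and 0.000319). Each was called in 3 of 28 alternatives. The others were a fit to only the 10 arrays compared (limma adjusted p = 0.00598 and 0.00345) and array weights (0.000363 and 0.000781). With Nr4a3, Got1 differed from GFP by -0.02 ± 0.22, and by 0.29 ± 0.09 without replicate 2 (limma adjusted p = 0.0862). Its mitochondrial counterpart Got2 differed from GFP by 0.17 with Nr4a1 and -0.24 with Nr4a3 (0.02 without replicate 2), and neither was called.

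Asns was bright and even in all arrays but 1. It ranged over 12.06 to 12.38 in Nr4a1 arrays, 12.03 to 12.18 in GFP arrays and 11.76 to 12.19 in untreated arrays. In Nr4a3 arrays it read 12.10, 10.34, 12.24, 12.28 and 12.32, with replicate 2 alone below 12. Nr4a1 differed from GFP by 0.09 ± 0.25 (limma adjusted p = 0.928, 95% interval -0.44 to 0.62), and Nr4a3 by -0.27 ± 0.25 (adjusted p = 0.670). Without Nr4a3 replicate 2 these were 0.09 ± 0.08 and 0.11 ± 0.08 (limma adjusted p = 0.488 and 0.584).

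Over the members, 1 of the 6 tested in Nr4a1 against GFP was called, Gamt, beside 8.71% of all genes. Leaving out Nr4a3 replicate 2 gave 3 of 6 beside 19.1%. In Nr4a3 against GFP it was 1 of 6, again Gamt, beside 1.93% (1.75% as higher), and 1 of 6 beside 3.71% with that array left out. In Nr4a1 against untreated, where all 8 were tested, 3 were called beside 7.94%, and 5 beside 19.1% without Nr4a3 replicate 2. The 3 were Phgdh and the 2 genes chosen by their values, Aadat and Gatm. Shmt2 and Got1 joined them without that array. With Aadat and Gatm included, these counts do not describe the genes listed for their role. Nr4a1 against Nr4a3 called 0 of 6 beside 0.633%, and 0 of 6 beside 0.935% without that array. GFP against untreated called 0 of 6 in limma, beside 0.0% of all genes, with 412 genes (2.9%) at an unadjusted p under 0.05. The comparisons share the Nr4a1 or GFP arrays, so their counts are not independent of each other.

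**Figure D4:**
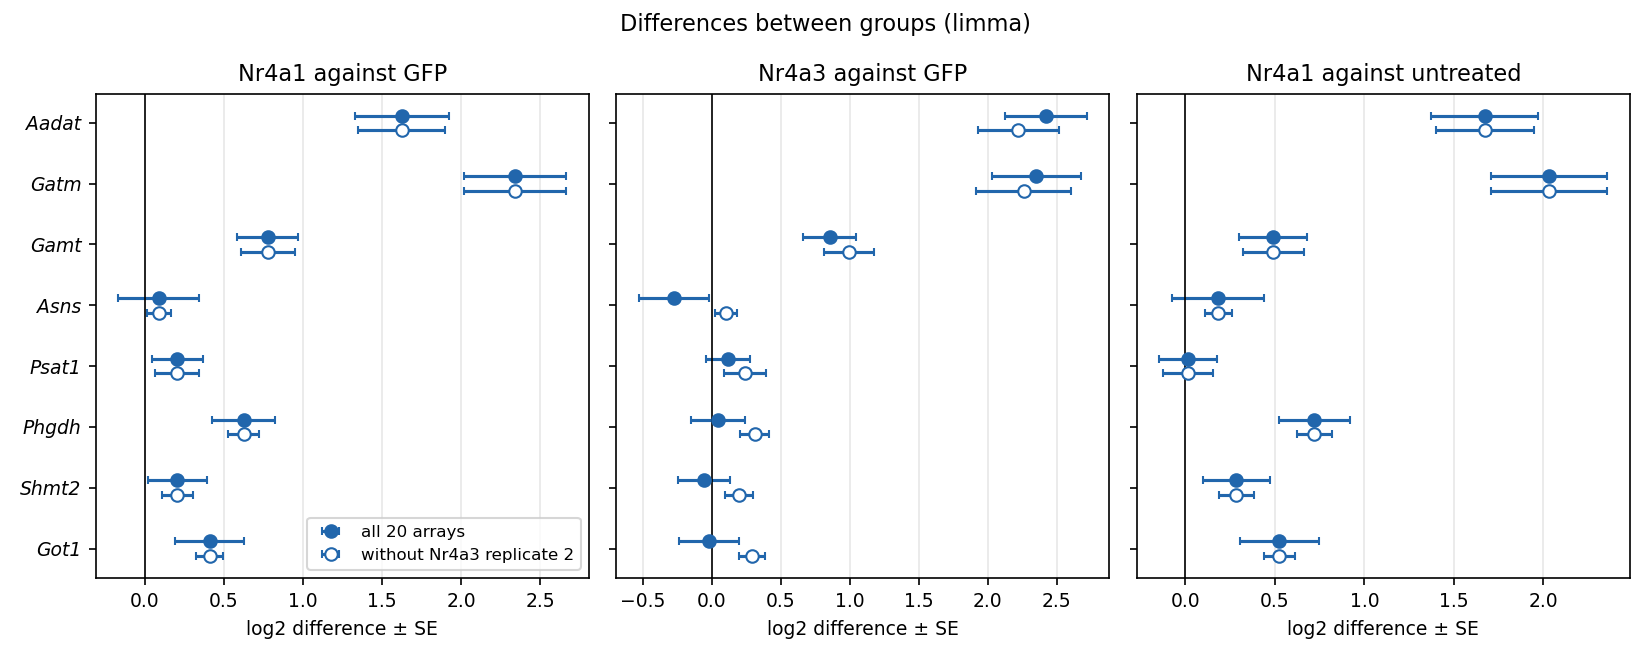
Log2 difference ± SE of the 8 enzyme genes in Nr4a1 against GFP, Nr4a3 against GFP and Nr4a1 against untreated arrays. Filled points use all 20 arrays and open points leave out Nr4a3 replicate 2. Aadat and Gatm lie farthest to the right in each panel, and leaving out that array narrows the error bars of Asns, Phgdh, Shmt2 and Got1 and moves their Nr4a3 values upward.

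Most genes of the wider amino acid lists were not called against GFP. Without the 8 members, 176 listed genes were measured, of which 21 rose and 5 fell with Nr4a1, 7 rose and 1 fell with Nr4a3, and 19 rose and 5 fell in Nr4a1 against untreated islets, beside 8.71%, 1.93% and 7.94% of all genes called. Without Nr4a3 replicate 2, the calls in these 3 comparisons numbered 47, 13 and 43, beside 19.1%, 3.71% and 19.1% of all genes. The Nr4a3 count was 4 or 5 without Nr4a3 replicate 1 or 3 or GFP replicate 2, 3, 4 or 5. In the ATF4 pathway, which holds Asns, Phgdh, Psat1 and Shmt2, 1 of 22 other genes rose and 1 fell with Nr4a1, and 3 rose and 4 fell without Nr4a3 replicate 2. The gene that rose was Eif2ak4, the kinase that senses uncharged tRNA (0.73 ± 0.10, limma adjusted p = 8.14e-05, and 0.49 ± 0.10, adjusted p = 0.0127, with Nr4a3), and Sesn2 fell by 0.60 with Nr4a1. The list's median was -0.17 with Nr4a1 and -0.20 with Nr4a3, against 0.00 over all genes in both, and the Nr4a3 median was -0.04 without replicate 2, against 0.02 over all genes. Atf4 itself differed by -0.03 with Nr4a1 and -0.37 with Nr4a3, Ddit3 by -0.38 and -0.29 and Trib3 by -0.57 and -0.09, with none called. Without Nr4a3 replicate 2 the Nr4a3 values were -0.07 for Atf4, -0.09 for Ddit3 and -0.24 for Trib3. Trib3 was called as lower with Nr4a1 without Nr4a1 replicate 5, Nr4a3 replicate 2, GFP replicate 4 or untreated replicate 3 (limma adjusted p from 0.0161 to 0.0443). None of 19 cytosolic aminoacyl-tRNA synthetase genes was called with either receptor, and without Nr4a3 replicate 2 there were 2 rises and 1 fall with Nr4a1 and 1 rise with Nr4a3.

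Among 19 methionine and cysteine genes, 4 rose with Nr4a1 and 1 with Nr4a3, beside 8.71% and 1.93% of all genes called. Without Nr4a3 replicate 2 there were 5 rises and 1 fall with Nr4a1, beside 19.1% of all genes. Ahcy, which removes the S-adenosylhomocysteine that GAMT and other methyltransferases leave, rose by 0.99 ± 0.10 with Nr4a1 (limma adjusted p = 2.86e-06) and by 0.60 ± 0.10 with Nr4a3 (adjusted p = 0.00291, and 0.0546 in a fit to only these 10 arrays). Cth, which makes cysteine from cystathionine, rose by 1.29 ± 0.23 with Nr4a1 (limma adjusted p = 0.00111) and differed by 0.24 with Nr4a3 (0.47 without Nr4a3 replicate 2). Cth was the only gene of the lists called between the receptors, higher in Nr4a1 than in Nr4a3 arrays by 1.05 ± 0.23 (limma adjusted p = 0.0334), a call lost in a fit to only these 10 arrays (0.357), with a replicate block (0.0528) and without Nr4a1 replicate 1, 3, 4 or 5 or Nr4a3 replicate 3 or 4 (up to 0.137). With Nr4a3 replicate 2 left out, 3 list genes were called between the receptors.

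Of 16 arginine, ornithine and proline genes, 2 rose with Nr4a1 and 1 with Nr4a3, beside 8.71% and 1.93% of all genes called. The same shares apply to the branched-chain and aspartate lists below. Without Nr4a3 replicate 2 they were 19.1% and 3.71%. Arg2, mitochondrial arginase, rose by 0.29 ± 0.08 with Nr4a1 (limma adjusted p = 0.0212, and up to 0.0638 without Nr4a1 replicate 4 or GFP replicate 1 or 4) and by 0.42 ± 0.08 with Nr4a3 (adjusted p = 0.00554). Arg1 and Ass1 of the urea cycle differed by -0.20 and -0.07 with Nr4a1 and by 0.08 and -0.26 with Nr4a3, and Oat, ornithine aminotransferase, by 0.16 and 0.08. Leaving out Nr4a3 replicate 2 gave Nr4a3 values of 0.05 for Arg1, -0.05 for Ass1 and 0.02 for Oat, and 3 genes of the list rose with Nr4a1 and 2 with Nr4a3. Of 20 branched-chain amino acid genes 3 rose and 1 fell with Nr4a1, and 1 rose with Nr4a3 (8, 1 and 3 without that array). Of 13 other aspartate, glutamate, glutamine and alanine genes, 2 rose and 1 fell with Nr4a1 (2 and 2 without that array) and 0 were called with Nr4a3. Glul, glutamine synthetase, differed by -0.30 with Nr4a1 (adjusted p = 0.0565 in limma, and 0.0283 to 0.0490 without Nr4a1 replicate 5, Nr4a3 replicate 2 or 5, GFP replicate 4 or untreated replicate 2) and by -0.24 with Nr4a3, and Gpt2, an alanine aminotransferase, by -0.04 and -0.05 (0.07 without Nr4a3 replicate 2).

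Of 34 amino acid transporter genes, 3 rose and 2 fell with Nr4a1, and 2 rose and 1 fell with Nr4a3. Calls over all genes were 8.71% with Nr4a1 and 1.93% with Nr4a3. Without Nr4a3 replicate 2, 3 rose and 5 fell with Nr4a1, beside 19.1% of all genes. Slc7a5 and Slc3a2, the chains of the large neutral amino acid transporter, differed by -0.48 and -0.36 with Nr4a1 and by -0.62 and -0.47 with Nr4a3, and none was called. The Nr4a3 values were -0.17 for both genes without Nr4a3 replicate 2. With that array left out, Slc7a5 fell by 0.48 with Nr4a1 (limma adjusted p = 0.00140). Slc7a11, the cystine transporter chain, differed by -0.86 with Nr4a1 and -0.71 with Nr4a3, with neither called.

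The genes whose levels followed Aadat most closely over the 20 arrays were Chia (Pearson r = 0.95), Tcf19 (0.94), Cbln1 (0.93), Dusp9 (0.92) and Stmn1 (0.91). Those closest to Gatm were Ect2 (r = 0.94), Nusap1 (0.94), Cdc42ep3 (0.93), Bmp2 (0.93) and Nuf2 (0.93). Aadat and Gatm correlated with each other at 0.86. These values include the step between receptor and control arrays. Within groups, taken as deviations from group means, r was 0.71, 0.67, 0.88, 0.65 and 0.54 for the Aadat list, 0.74, 0.75, 0.58, 0.61 and 0.61 for the Gatm list, and 0.39 for Aadat with Gatm. All points share the arrays and their normalization. Of 15 G2/M and mitosis genes, which include Nuf2, 14 rose with Nr4a1 and 12 with Nr4a3 against GFP, a further change between the same arrays whose part in the enzyme results was not tested.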

How the data were processed

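Per the submitters' processing notes, RMA made the deposited values, which are linear intensity values per probe set of an Affymetrix rat array. Its version was not given in the sources used here. RMA compresses differences of dim probe sets. Values were log2-transformed, with array medians of 98.9 to 103 before that. Of 31099 probe sets, 20832 carry 1 symbol, 9831 none, 436 several, and 57 are controls. Through the gene identifier 20764 matched RefSeq, and 0 symbols changed. Each of 14217 genes was represented by its brightest probe set on average over the arrays, and 4525 of them have several.

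Group means were fitted with limma 3.58.1 (R 4.3.3) to the 20 arrays together, using two-sided moderated tests with 3.64 prior and 16 residual degrees of freedom, adjusted by Benjamini-Hochberg over all genes and called under 0.05. The script was tested on simulated data. Alternatives were fits to 10 arrays, a replicate block, trended robust variance, array weights, repeated quantile normalization, a filter on dim genes, other uses of probe sets, and each array left out. The arrays' number limits precision.

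Members, lists and tests were chosen with earlier results of these data known. Named are the 8 members, fixed genes of each list (Psph, Shmt1, Mthfd2, Slc6a8, Ckb, Aass, Aldh7a1, Kmo, Kynu, Got2, Glul, Gpt2, Arg1, Arg2, Ass1, Oat, Atf4, Ddit3, Trib3, Slc7a11, Slc3a2 and Slc7a5, with 1 further fixed gene not reported here), the 5 genes most correlated with Aadat and with Gatm, and markers. Promoters are RefSeq sequences of GRCr8, matched by symbol for all 8 members.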

Additional observations from a re-analysis of the deposited data

Results flagged for a closer look

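For each of the 8 genes, the 5 arrays of each group were checked for 1 array far from the rest, by the gap to its neighbour over the group's range, against a critical value of 0.71. Of 32 such groups 5 passed, and chance alone passes about 5% of groups. In 4 of them the array is Nr4a3 replicate 2, the lowest of its group: Asns at 10.34 (gap over range 0.887), Got1 at 7.83 (0.857), Phgdh at 8.08 (0.731) and Shmt2 at 8.73 (0.731). The other is Phgdh in untreated replicate 3, the highest of its group at 9.24 (0.813). Aadat, Gatm, Gamt and Psat1 gave no such array in any group.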

How the results depend on the processing

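The number of called genes, tested members and list genes without members was 1239, 1 and 26 in Nr4a1 against GFP, 274, 1 and 8 in Nr4a3 against GFP, 90, 0 and 1 in Nr4a1 against Nr4a3, and 1129, 3 and 24 in Nr4a1 against untreated. A fit to only the 10 arrays compared gave 2853, 3 and 47, then 122, 0 and 2, then 1 gene and 0 list genes, and 1800 genes against untreated. Array weights gave 3576, 3 and 66, then 1027, 2 and 21, then 274 genes and 6 list genes, then 2398 genes and 38 list genes. Repeated quantile normalization called 2 members in Nr4a1 against GFP and 2 list genes between the receptors, as many as the mean of probe sets did there. With dim genes left out, which removes Aadat, Gatm and Gamt from the test, 132 genes and 0 members were called in Nr4a3 against GFP and 1 member in Nr4a1 against untreated. The replicate block called 1088 genes and 2 members in Nr4a1 against GFP, Gamt and Phgdh (limma adjusted p = 0.0403), and 204 genes in Nr4a3 against GFP. Same-numbered arrays of different groups did not deviate together as a set (30 pairs, median correlation -0.03, range -0.30 to 0.50, 7 above 0.1, 3 of 20 arrays closest to their own number). The labels do not say whether equal numbers share animals, and correlations of this kind cannot exclude it.

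With single arrays left out, the counts of genes, members and list genes ran over 742 to 2714, 0 to 3 and 21 to 47 in Nr4a1 against GFP, 127 to 527, 0 to 1 and 4 to 13 in Nr4a3 against GFP, 43 to 133, 0 to 0 and 0 to 3 between the receptors, and 714 to 2710, 2 to 5 and 20 to 43 in Nr4a1 against untreated. GFP against untreated stayed at 0 under all of them.

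Reversed signs were among differences that had not been called. With array weights these were Asns 0.073, Shmt2 0.12, Got1 0.31 (limma adjusted p = 0.0307), Kynu 0.015, Mthfd2 0.20 and Gpt2 0.081 in Nr4a3 against GFP, Ckb 0.015 in Nr4a1 against GFP, Asns -0.013 and Psat1 -0.088 between the receptors and Psat1 -0.013 in Nr4a1 against untreated. Repeated quantile normalization gave Psat1 -0.038 in Nr4a1 against untreated and Kyat3 -0.0089 in Nr4a3 against GFP, and the mean of probe sets gave Slc6a8 -0.14 there. With single arrays left out, the ranges in Nr4a3 against GFP were -0.39 to 0.11 for Asns, -0.039 to 0.24 for Psat1, -0.077 to 0.31 for Phgdh, -0.17 to 0.20 for Shmt2, -0.13 to 0.29 for Got1, -0.045 to 0.086 for Kyat3, -0.024 to 0.17 for Kmo, -0.093 to 0.035 for Kynu, -0.026 to 0.076 for Shmt1, -0.088 to 0.21 for Mthfd2, -0.070 to 0.15 for Ckb, -0.32 to 0.021 for Got2, -0.13 to 0.071 for Gpt2, -0.037 to 0.20 for Arg1 and -0.24 to 0.010 for Trib3. In Nr4a1 against GFP they were -0.066 to 0.018 for Kynu, -0.078 to 0.083 for Shmt1, -0.20 to 0.057 for Ckb, -0.091 to 0.0081 for Gpt2, -0.37 to 0.15 for Ass1 and -0.070 to 0.022 for Atf4. Between the receptors they were -0.22 to 0.034 for Gamt, -0.019 to 0.48 for Asns and -0.036 to 0.24 for Psat1, and in Nr4a1 against untreated -0.050 to 0.10 for Psat1. The causes were not tested.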
